A study of Mus musculus with 13 samples.

Results

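The platelet-derived growth factor (PDGF) family of the mouse comprises 4 ligand genes, Pdgfa, Pdgfb, Pdgfc and Pdgfd, and 2 receptor genes, Pdgfra and Pdgfrb. These 6 genes were chosen by name out of 46958 in the deposited table, and all 6 were among the 16738 genes with enough counts to be tested. They were measured by RNA sequencing in glomeruli, the capillary tufts that filter blood in the kidney, which had been isolated with magnetic beads. The mice were 6 months old and of a mixed C57/BL6x129/SVxBALB/c background. In light chain deposition disease (LCDD), a single immunoglobulin light chain made in excess accumulates in the kidney, and the study is about its toxicity to glomeruli.

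The groups were kFRA (LCDD) with 4 libraries, called LCDD here, DH-LMP2A with 4 and wild type (WT) with 5. Each library came from a pool of 3 mice, except WT replicates 3, 4 and 5, which were single mice. The labels do not describe DH-LMP2A, and do not say which cells make the light chain or whether LCDD mice also carry the DH-LMP2A allele. The sample titles hold a numeric code of unstated meaning with 4 values, called the first to the fourth in ascending order. Replicates 1 to 4 of LCDD and of DH-LMP2A carry the codes in that order, WT replicate 1 carries the first, WT replicate 2 the third and WT replicates 3 to 5 the fourth. The LCDD and DH-LMP2A libraries that share a code varied together and were treated as pairs. P-values measure the spread between these libraries, which may be partly technical.

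Library totals ran from 16687509 to 30587890 counts, and levels are given as CPM, the read count scaled to the size of the library. The markers of podocytes (9 genes), endothelium (10) and mesangial cells (10) were all detected in every library. Markers of the tubule summed to 259 to 3518 CPM over the 13 libraries, and those of platelets, which store PDGF protein, to 2.37 to 9.35 CPM. Genes on the Y chromosome (4 genes) summed to 18.0 to 220 CPM in LCDD, 68.3 to 223 in DH-LMP2A and 0 to 27.0 in WT. The labels give no sex, so a part of sex in any comparison with WT cannot be told apart from genotype. The Y-linked sums also differed within the pairs of LCDD and DH-LMP2A. LCDD replicates 1 to 4 had 174, 21.1, 220 and 18.0 CPM. DH-LMP2A replicates 1 to 4 had 111, 223, 68.3 and 126 CPM. A part of sex in the differences within these pairs was not tested, since the Y-linked genes were used as a covariate only in fits without pairing.

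PDGF ligands are secreted dimers that bind receptor tyrosine kinases on mesenchymal cells. PDGF-A and PDGF-C act through PDGF receptor alpha, PDGF-B through both receptors, and PDGF-D mainly through receptor beta. PDGF-C and PDGF-D are made as latent proteins with a CUB domain that proteases must remove. In the developing glomerulus, PDGF-B from capillary endothelium recruits mesangial cells, the contractile cells between the capillary loops, by their receptor beta. Excess PDGF-B or PDGF-D is known to drive mesangial growth in experimental kidney disease.

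In the deposited GRCm38 coordinates, the ligand genes span chr5:138976014-138997370 (Pdgfa, minus strand), chr15:79995900-80014808 (Pdgfb, minus), chr3:81036416-81214040 (Pdgfc, plus) and chr9:6168612-6378843 (Pdgfd, plus). The receptor gene Pdgfra spans chr5:75152292-75198215 (plus). Promoter sequences are shown for Pdgfa, Pdgfd and Pdgfra, whose 95% intervals of the log2 fold change between LCDD and DH-LMP2A lay above 0. Pdgfc, whose interval included 0, is shown as well. The sequences are from RefSeq on GRCm38.p6, read 5′ to 3′ on the strand of the gene, and end at the base before the annotated transcription start. The 2 starts of Pdgfa lie inside the span of its longer transcripts. For the downstream start (138994281), the 117 bases next to it that are outside exons are shown. Capitals mark the letters of a GC box in Pdgfa, of a TATA box in Pdgfd and of a CArG box in Pdgfc, and Pdgfra has no match. Matches were counted wherever they lay, and the TATAAA of Pdgfd is nearer to the far end of its sequence than to the start.

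Pdgfa, chr5:138994282-138994398, minus strand: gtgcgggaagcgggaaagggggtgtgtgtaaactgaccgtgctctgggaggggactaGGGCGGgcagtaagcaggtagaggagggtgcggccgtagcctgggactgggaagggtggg

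Pdgfd, chr9:6168236-6168485, plus strand: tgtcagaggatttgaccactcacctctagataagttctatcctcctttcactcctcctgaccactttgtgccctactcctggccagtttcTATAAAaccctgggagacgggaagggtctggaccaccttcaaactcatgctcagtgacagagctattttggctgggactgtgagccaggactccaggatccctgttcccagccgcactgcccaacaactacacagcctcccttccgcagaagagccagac

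Pdgfra, chr5:75152001-75152250, plus strand: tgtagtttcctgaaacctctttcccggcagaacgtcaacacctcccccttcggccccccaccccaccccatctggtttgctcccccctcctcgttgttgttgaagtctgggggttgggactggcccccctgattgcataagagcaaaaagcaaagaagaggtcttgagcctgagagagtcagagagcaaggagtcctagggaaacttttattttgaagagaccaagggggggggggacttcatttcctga

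Pdgfc, chr3:81036166-81036415, plus strand: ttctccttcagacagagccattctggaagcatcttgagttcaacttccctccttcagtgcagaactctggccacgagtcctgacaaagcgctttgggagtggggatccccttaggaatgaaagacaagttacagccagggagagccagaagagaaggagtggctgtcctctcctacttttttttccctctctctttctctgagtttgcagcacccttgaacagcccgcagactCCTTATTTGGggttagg

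A set of 6 motifs was searched on both strands of the 250 bases before each start, and the share of all 32851 promoters in the table that hold each one is given. The GC box GGGCGG is in 32.7% of them, the TATA box TATAAA in 12.4%, CCAAT in 33.8%, the AP-1 site TGANTCA in 6.75%, the EGR site GCGTGGGCG in 0.536%, and the CArG box, the site of serum response factor, in 1.47%. A GC box was found at both Pdgfa starts (once in the sequence shown, 2 times at the other start), a TATA box in Pdgfd and a CArG box in Pdgfc. The AP-1, EGR and CCAAT letters were in none of these windows. Pdgfa, Pdgfd and Pdgfra therefore had no motif in common among those searched, and a match or its absence says nothing of a factor's binding. The GC content of the 250 bases was 66.4% and 72.4% at the Pdgfa starts, 53.6% at Pdgfd, 54.4% at Pdgfra and 50.8% at Pdgfc, against a median of 52.4% over all promoters.

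All 6 genes were well expressed, with 396 to 20108 counts per library. Levels between genes were compared as TPM, which also divides the count by the deposited exon length of the gene. Pdgfrb led, with a median of 428 TPM over the 13 libraries (range 246 to 499), which placed it at the 98.3rd percentile of tested genes. Pdgfb, the endothelial ligand, had a median of 256 TPM (207 to 307), at the 96.7th percentile. The remaining members lay far below these.

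Pdgfd had a median of 64.7 TPM (37.8 to 112), and Pdgfra 49.7 TPM (36.4 to 67.6). Pdgfa followed with 28.0 TPM (21.3 to 43.2) and Pdgfc with 17.2 TPM (13.4 to 31.9). Within single libraries Pdgfrb exceeded Pdgfb in 12 of 13, Pdgfb exceeded Pdgfd in 13, Pdgfd exceeded Pdgfra in 12, Pdgfra exceeded Pdgfa in 13 and Pdgfa exceeded Pdgfc in 12. The ranges of neighbours overlapped for all of these pairs except Pdgfb and Pdgfd.

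**Figure D1:**
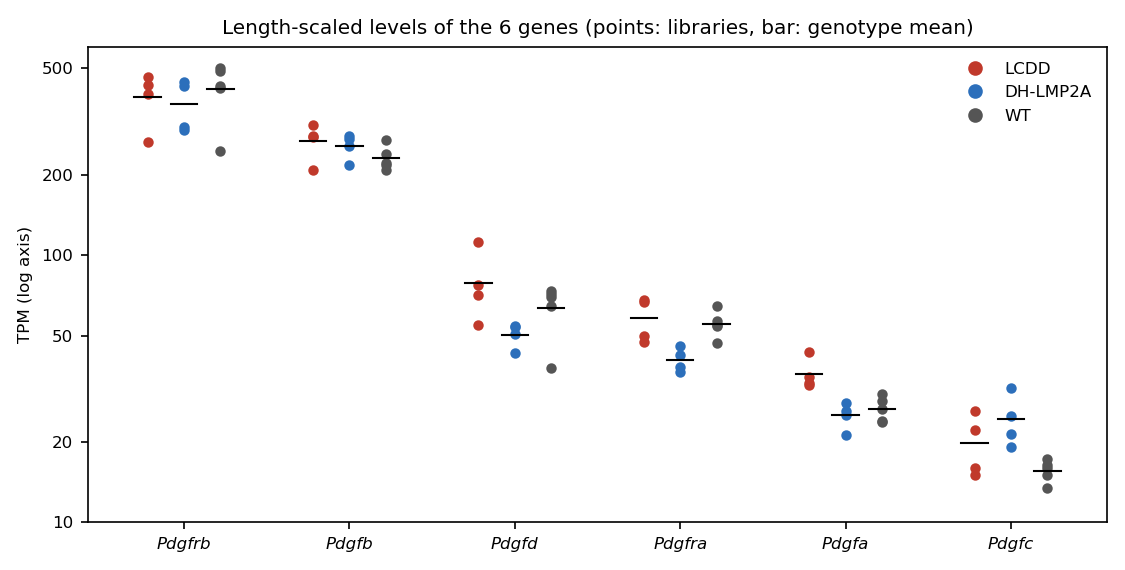
Level of each of the 6 genes in TPM on a log axis, with 1 point per library coloured by genotype and a bar at the genotype mean. Pdgfrb (246 to 499 TPM) and Pdgfb (207 to 307 TPM) stand above the other 4 genes in every library.

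Of the summed ligand TPM, Pdgfb held 66.5% ± 4.69 (SD, n = 4) in LCDD, 71.7% ± 3.82 (n = 4) in DH-LMP2A and 68.6% ± 3.70 (n = 5) in WT. Pdgfd was next, with 19.4% ± 3.91, 14.3% ± 2.02 and 18.8% ± 4.03. Pdgfa held 8.99% ± 0.688, 7.13% ± 1.17 and 7.95% ± 1.17, and Pdgfc 5.11% ± 1.96, 6.88% ± 1.65 and 4.65% ± 0.408. The order of the ligands by mean share was the same in the 3 genotypes. Pdgfrb held 86.8% ± 2.43, 89.9% ± 1.18 and 87.9% ± 2.21 of the receptor TPM, a ratio of Pdgfrb to Pdgfra of 6.80 ± 1.69, 8.98 ± 1.20 and 7.44 ± 1.28.

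Between LCDD and DH-LMP2A, the ligands Pdgfa and Pdgfd and the receptor Pdgfra were higher in LCDD by 1.51-, 1.68- and 1.49-fold, and the 95% intervals of Pdgfb, Pdgfc and Pdgfrb included 0 on the log2 scale. In the test without pairing (edgeR quasi-likelihood), 0 of the 6 genes were called at an adjusted p under 0.05, against 2.00% of all genes tested. At an unadjusted p under 0.05 there were 3, against 2193 of all 16738 genes. DESeq2 called 2 (Pdgfa, adjusted p = 0.0313, and Pdgfra, 0.0114), with 823 genes called over all. With the title code as a block, Pdgfa, Pdgfd and Pdgfra were called, 3 of 6 and all higher in LCDD, against 6.10% of all genes. The block calls rested on particular libraries, as given below. P-values were adjusted over all 16738 genes.

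Pdgfa measured 49.3, 33.6, 31.8 and 30.6 CPM in LCDD replicates 1 to 4. In DH-LMP2A replicates 1 to 4 it measured 27.8, 19.4, 23.6 and 25.1 CPM. WT replicates 1 to 5 gave 27.2, 28.3, 22.7, 28.1 and 25.3 CPM. Every LCDD library was above every library of the other genotypes, and LCDD replicate 1 was the highest. How often genotypes separate in this way over all genes tested is not given here, for this gene or for the separations described below. Against DH-LMP2A the log2 fold change was 0.60 ± 0.16 (SE, 95% interval 0.25 to 0.95, adjusted p = 0.0840, edgeR). With the block it was 0.59 ± 0.13 (adjusted p = 0.0266). Exons of Pdgfa share 813 bases with 6330403L08Rik on the opposite strand, which had at most 275 counts. The strand setting of the counting is not given in the sources used here, so some Pdgfa reads could belong to that gene.

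Pdgfd, the latent ligand of receptor beta, measured 128, 78.1, 49.7 and 66.7 CPM in LCDD replicates 1 to 4. DH-LMP2A replicates 1 to 4 gave 55.9, 48.8, 38.8 and 48.7 CPM. In WT replicates 1 to 5 it measured 78.9, 37.6, 68.6, 60.3 and 70.1 CPM. LCDD replicate 1 was far above the other LCDD libraries, and LCDD and DH-LMP2A overlapped in CPM but not in TPM (54.7 to 112 against 42.9 to 54.3). The log2 fold change against DH-LMP2A was 0.74 ± 0.27 (0.16 to 1.33, adjusted p = 0.221, edgeR), and with the block 0.68 ± 0.14 (adjusted p = 0.0235). Without LCDD replicate 1 the unpaired value was 0.43 (adjusted p = 0.624).

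Pdgfra, the receptor for PDGF-A and PDGF-C, measured 173, 220, 145 and 202 CPM in LCDD replicates 1 to 4. DH-LMP2A replicates 1 to 4 gave 134, 134, 123 and 105 CPM. WT replicates 1 to 5 gave 170, 205, 169, 162 and 174 CPM. DH-LMP2A stood apart here: its 4 libraries lay below every LCDD and every WT library. Against DH-LMP2A, LCDD had a log2 fold change of 0.58 ± 0.14 (0.28 to 0.88, adjusted p = 0.0546, edgeR), and with the block 0.57 ± 0.13 (adjusted p = 0.0302). Exons of Pdgfra share 456 bases with Gm42802 and 166 with Gm42803 on the opposite strand, which had at most 2 counts each in any library.

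**Figure D2:**
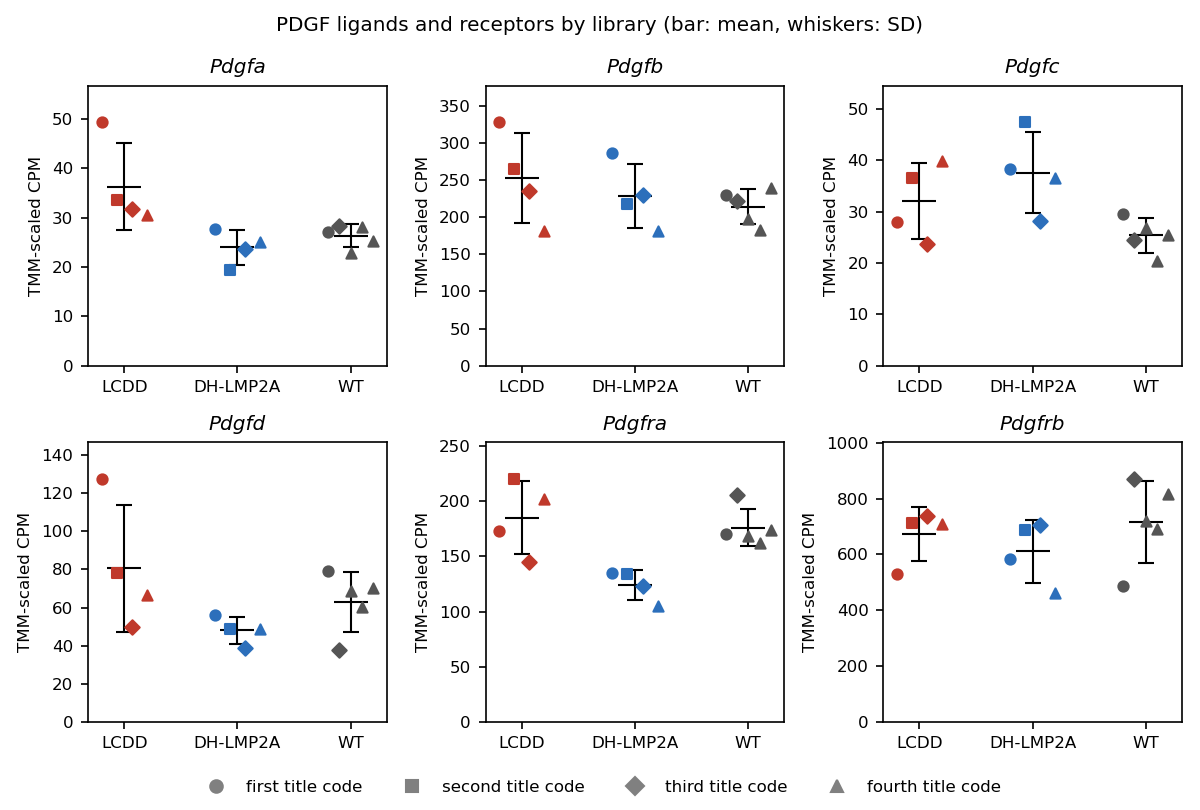
TMM-scaled CPM of each gene by library, with the genotype on the x axis, a marker shape per title code, a bar at the mean and whiskers of 1 SD. All 4 LCDD libraries lie above all DH-LMP2A libraries for Pdgfa and Pdgfra, and DH-LMP2A lies below both other genotypes for Pdgfra.

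Within each title code, LCDD exceeded DH-LMP2A for these 3 genes in 4 of 4 pairs. The Y-linked sum was lower in LCDD in the pairs of replicates 2 and 4, and higher in those of replicates 1 and 3. The block was not fitted together with the Y-linked genes, so their part in the block values was not tested. The log2 differences under the first to the fourth code were 0.82, 0.79, 0.43 and 0.28 for Pdgfa. For Pdgfd they were 1.19, 0.68, 0.35 and 0.45, and for Pdgfra 0.37, 0.72, 0.24 and 0.95. The pair with the widest gap was that of the first code for both ligands and that of the fourth for the receptor.

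**Figure D3:**
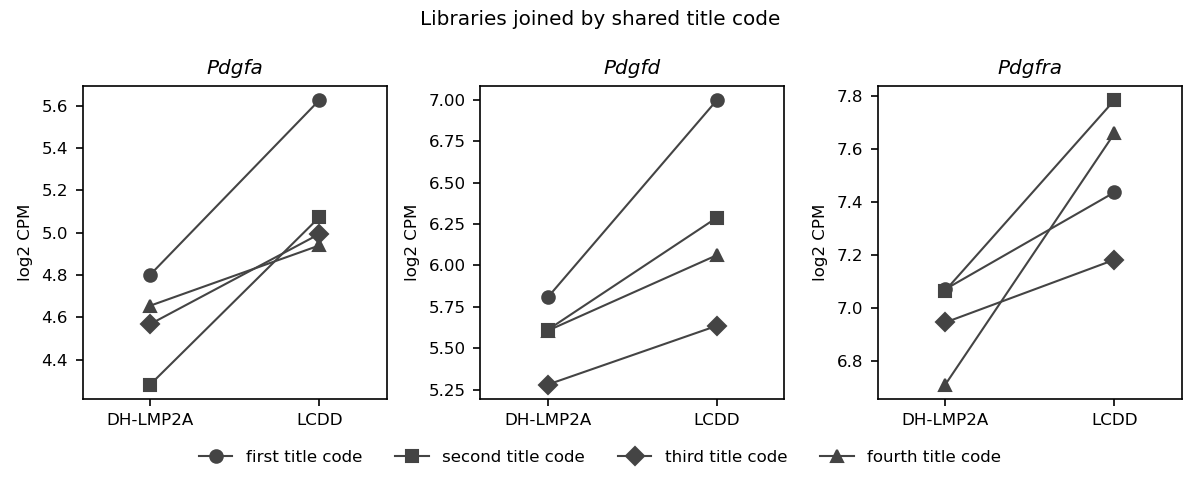
Log2 CPM of Pdgfa, Pdgfd and Pdgfra in the DH-LMP2A and LCDD libraries, with lines joining the libraries that share a title code. Every line slopes up from DH-LMP2A to LCDD, by 0.24 to 1.19.

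The block calls of these 3 genes did not hold when a code was left out, except for the third. Without the first code the adjusted p-values were 0.0720 (Pdgfa), 0.0693 (Pdgfd) and 0.0518 (Pdgfra), where 670 of 16738 genes were called over all. Without the second they were 0.119, 0.0873 and 0.151 (264 genes called), and without the fourth 0.172, 0.168 and 0.334 (71 genes). The calls over all genes thus fell as well, from 1021 with all codes, and without the third code they were 1057. The log2 fold changes of the 3 genes with 1 code left out stayed between 0.44 and 0.79. In a block fit of only the LCDD and DH-LMP2A libraries, Pdgfa (adjusted p = 0.0476) and Pdgfd (0.0489) were called and Pdgfra (0.0735) was not, with 779 genes called over all.

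Tubule markers were lower in LCDD than in DH-LMP2A for 11 of 11 genes (median log2 fold change -0.70, summed 543 to 2060 against 950 to 3243 CPM), with 0 called. With their mean as a covariate and no block, Pdgfa (0.62, adjusted p = 0.0407), Pdgfd (0.83, 0.0489) and Pdgfra (0.60, 0.0258) were called, as were 1042 genes over all. With the block and that covariate together, 0 of 6 were called, with adjusted p-values of 0.0642, 0.0517 and 0.0611 for the same genes and 609 genes called over all.

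Pdgfb measured 182 to 327 CPM in LCDD (252 ± 60.7, n = 4), 182 to 286 in DH-LMP2A (229 ± 43.2, n = 4) and 182 to 239 in WT (214 ± 23.8, n = 5). The 3 genotypes had nearly the same lowest library, and all overlapped. LCDD and DH-LMP2A differed by a log2 fold change of 0.14 (-0.25 to 0.53, adjusted p = 0.806, edgeR). The title code held 63.5% of the variance of log2 CPM of Pdgfb and genotype 12.5%, against 2.65% and 68.6% for Pdgfra. The same shares were 54.7% and 33.1% for Pdgfd, 48.9% and 12.3% for Pdgfrb, 43.56% and 46.65% for Pdgfc, and 21.8% and 59.2% for Pdgfa. The shares of code and genotype came from separate fits and were not tested. Pdgfc measured 23.7 to 39.8 CPM in LCDD (32.1 ± 7.46), 28.2 to 47.4 in DH-LMP2A (37.6 ± 7.86) and 20.4 to 29.6 in WT (25.4 ± 3.37), and its difference between LCDD and DH-LMP2A was -0.23 (-0.64 to 0.18, adjusted p = 0.676).

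Pdgfrb, the mesangial receptor (chr18:61045150-61085061, plus strand), measured 528, 713, 736 and 710 CPM in LCDD replicates 1 to 4, and 584, 688, 706 and 463 in DH-LMP2A. In WT replicates 1 to 5 it measured 488, 871, 720, 691 and 816 CPM. The low libraries were those of the first code in all 3 genotypes and DH-LMP2A replicate 4. LCDD and DH-LMP2A differed by 0.14 (-0.29 to 0.57, adjusted p = 0.831, edgeR).

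Of 10 mesangial markers, 4 were called higher in LCDD than in DH-LMP2A and 0 lower: Serpine2, a protease inhibitor (log2 fold change 1.29 ± 0.30, adjusted p = 0.0446), Ptn, a heparin-binding growth factor (1.09 ± 0.23, 0.0334), Sfrp2, a Wnt modulator (1.01 ± 0.23, 0.0395), and Art3 (0.97 ± 0.19, 0.0196). Over all genes tested 2.00% were called. The median of the 10 was 0.84, against -0.0061 over all genes tested. The summed level ran from 4489 to 9093 CPM in LCDD, 3368 to 4252 in DH-LMP2A and 3791 to 4414 in WT. The count of called markers depended on the libraries. It was 0 without any one of LCDD replicates 1, 2 or 4 or DH-LMP2A replicates 2, 3 or 4. Without any one of WT replicates 3 to 5 it was 1. With the Y-linked genes as a covariate and no block it was 4. With the block it was 6 higher and 1 lower, Rgs5, a pericyte gene, at -1.16 (adjusted p = 0.0198).

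**Figure D4:**
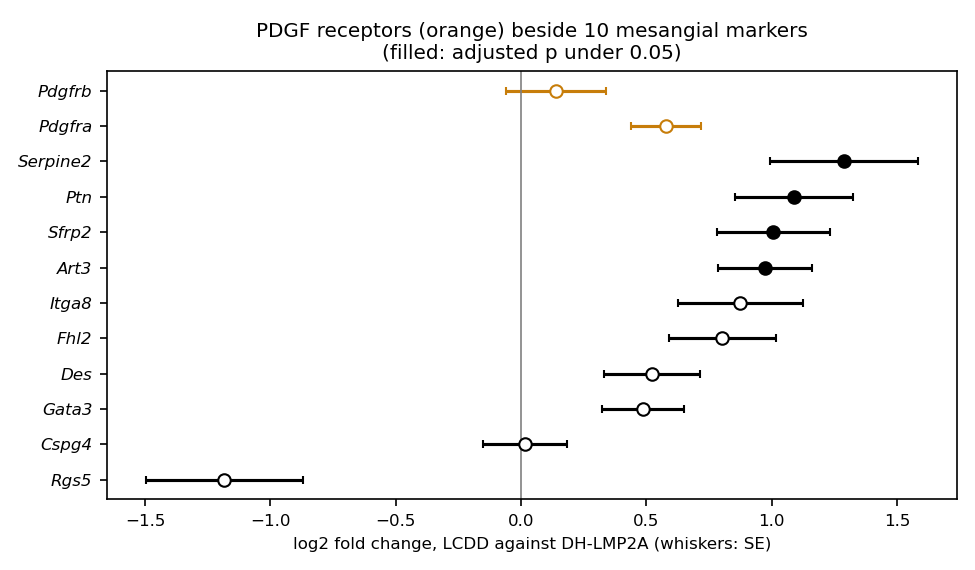
Log2 fold change of LCDD against DH-LMP2A for 10 mesangial markers (black) and the PDGF receptors (orange), with whiskers of 1 SE, where filled points have an adjusted p under 0.05 without a block. Pdgfra (0.58) and Pdgfrb (0.14) lie below the median marker (0.84), and Serpine2, Ptn, Sfrp2 and Art3 are filled.

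In single libraries, Pdgfrb minus the mean log2 CPM of the mesangial markers was 0.67 ± 0.45 in LCDD (0.06 to 1.13), 1.09 ± 0.30 in DH-LMP2A and 1.21 ± 0.23 in WT. The genotypes overlapped, and LCDD replicate 1 was the lowest. For Pdgfra the same difference was -1.19 ± 0.26, -1.19 ± 0.14 and -0.79 ± 0.15. For Pdgfb minus the endothelial markers it was -1.67 ± 0.32, -1.38 ± 0.28 and -2.13 ± 0.15. In such whole-glomerulus RNA, fewer cells of a type and less RNA per cell cannot be told apart. The part of these cell types in the PDGF values was not tested.

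Genes of cell division differed between the genotypes. Of 16 proliferation genes, 8 were called higher in LCDD than in DH-LMP2A and 0 lower, against 2.00% of all genes tested. The median log2 fold change of the 16 was 1.72. This list was chosen with earlier results of these data known. The smallest p-values were those of Mcm6, of the replication helicase (2.44 ± 0.28, adjusted p = 0.000750), Mki67 and Top2a (2.62 ± 0.33 and 2.68 ± 0.34, both 0.00152), and Cdk1, the mitotic kinase (2.49 ± 0.39, 0.00695). Mcm6 was also lower in DH-LMP2A than in WT (log2 fold change -2.03), the only gene of this list called in that comparison. The summed level was 272 to 427 CPM in LCDD, 189 to 232 in DH-LMP2A and 204 to 235 in WT, so that LCDD overlapped neither and the other genotypes overlapped each other. The count was 5 without any one of LCDD replicates 1 or 2 or DH-LMP2A replicates 2, 3 or 4. Calls over all genes fell there as well, from 334 to between 113 and 186. When only genes with a mean of 5 CPM or more were tested the count was 3, with 153 genes called over all. With the Y-linked genes as a covariate and no block, the count of proliferation genes was 8. Across the 13 libraries, the Pearson r of log2 CPM with the mean of these genes was 0.88 for Pdgfa, 0.66 for Pdgfd, 0.59 for Pdgfb and 0.47 for Pdgfra, and -0.06 to 0.04 for Pdgfrb and Pdgfc. With genotype means removed it was highest for Pdgfb (0.83), then Pdgfa (0.75) and Pdgfd (0.66). With the mean of the mesangial markers r was 0.85 for Pdgfa, 0.68 for Pdgfd, 0.61 for Pdgfra and 0.51 for Pdgfb. For Pdgfrb it was 0.09 and for Pdgfc 0.005. These are descriptions over libraries that share codes and genotypes.

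Other genes of the pathway, which process the ligands, carry the signal or respond to it, were then counted. Of 7 proteases that process the ligands, of 34 receptor-proximal genes, of 15 tested co-receptors and restraints (of 17 listed), of 3 related class III receptors and of 14 classic PDGF-induced genes, 0 were called in either direction without the block. The medians were 0.02, 0.05, 0.09, 0.91 and 0.67, against -0.0061 over all genes tested. The smallest p among co-receptors was that of Nrp1, the neuropilin that binds PDGF and VEGF, at 2678 ± 511 CPM in LCDD and 1462 ± 243 in DH-LMP2A (0.87 ± 0.22, adjusted p = 0.0610). With the block Nrp1 was called (0.00625). In the PDGF-induced list, 13 of 14 had a positive fold change, and the gene with the smallest p was the exception, Odc1, ornithine decarboxylase (-0.80 ± 0.20, adjusted p = 0.0665, 0.0335 with the block). The mean log2 CPM of this list overlapped, at 4.78 to 6.27 in LCDD and 4.67 to 5.55 in DH-LMP2A.

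With the block, 1 gene was also called in each direction among the proteases. Plau, the urokinase that activates latent PDGF-D, was higher (0.70, adjusted p = 0.0348), and Pcsk6, a proprotein convertase, was lower (-1.22, 0.0300). The adaptor gene Nck2 was lower (-0.51, 0.0247), and Flt3, a class III receptor of blood cells at 1.51 CPM in LCDD and 0.539 in DH-LMP2A, was higher (adjusted p = 0.0235). Without the block the log2 fold change of Flt3 was 1.46, and the adjusted p-values of these genes were 0.350, 0.337, 0.591 and 0.110. Macrophage markers had positive fold changes for 7 of 7 genes (median 0.62) with 0 called, and their part in the Flt3 value was not tested.

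The 3 comparisons share libraries, so the values against WT are set beside those above and are not independent of them. Against WT, LCDD had 0 of 6 PDGF genes called, against 1.84% of all genes tested, and 0 by DESeq2. At an unadjusted p under 0.05 there was 1, against 2002 of all 16738 genes. Pdgfa had the widest separation, at 36.3 ± 8.74 CPM against 26.3 ± 2.32, with no overlap, a log2 fold change of 0.47 ± 0.15 (0.14 to 0.79) and an adjusted p of 0.175 (edgeR). It was higher in LCDD under each of the 3 codes that hold both genotypes, by 0.86, 0.17 and 0.28. Pdgfd was 0.35 (adjusted p = 0.700), Pdgfc 0.34 (0.517) and Pdgfb 0.24 (0.702). The receptors were near 0, with Pdgfra at 0.07 (-0.21 to 0.36, adjusted p = 0.927) and Pdgfrb at -0.09 (-0.50 to 0.32, 0.937). Without LCDD replicate 1, Pdgfd was at 0.04 and Pdgfa at 0.28 (adjusted p = 0.461). With the Y-linked genes as a covariate, Pdgfa was at 0.26 (adjusted p = 0.784).

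Proliferation genes rose against WT as well, 8 of 16 with 0 lower (median 1.74), and the mesangial markers Art3 (1.12, adjusted p = 0.00636) and Ptn (1.12, 0.0191) were called. Ptpro, a phosphatase of podocytes, fell by 2.13 on the log2 scale (adjusted p = 0.0176, edgeR). With the Y-linked genes as a covariate, 0 of the 16 proliferation genes and 0 of the 10 mesangial markers were called. Without the single-mouse WT libraries the counts were 2 and 0. Calls over all genes fell as well, from 308 to 23 with the covariate and to 54 without those libraries. The PDGF-pathway lists had 0 calls in either direction. Of the PDGF-induced genes 12 of 14 had positive fold changes (median 0.40, against 0.0102 over all genes tested). The gene with the smallest p was Cyr61, a matricellular gene, at 1.30 ± 0.33 (adjusted p = 0.0683).

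DH-LMP2A against WT gave 0 of 6 PDGF genes called, against 0.627% of all genes tested. At an unadjusted p under 0.05 there were 2, Pdgfra and Pdgfc, against 2085 of all 16738 genes. DESeq2 called 1, Pdgfra (-0.51, adjusted p = 0.0289), with 474 genes called over all. Pdgfra was 124 ± 13.9 CPM against 176 ± 16.8, without overlap, a log2 fold change of -0.50 ± 0.13 (-0.79 to -0.22, adjusted p = 0.133, edgeR). It was lower in DH-LMP2A under all 3 shared codes, by -0.34, -0.73 and -0.68. Pdgfc was higher by 0.57 ± 0.18 (0.18 to 0.95, adjusted p = 0.200), and higher under all 3 codes, by 0.37, 0.20 and 0.60. The 2 genotypes overlapped for Pdgfc in CPM and not in TPM (19.1 to 31.9 against 13.4 to 17.2).

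The 95% intervals of the remaining genes included 0, with Pdgfd at -0.39 (adjusted p = 0.558), Pdgfrb at -0.23 (0.650), Pdgfa at -0.13 (0.756) and Pdgfb at 0.10 (0.859). Nrp1 had a log2 fold change of -0.82 ± 0.21 (adjusted p = 0.113). Mcm6 fell by 2.03 on the log2 scale (adjusted p = 0.00440), the single call among 16 proliferation genes, and the pathway lists had 0 calls. Of the endothelial markers, 0 of 10 were positive (median -0.57), and of the tubule markers 9 of 11 were positive (median 0.87), with 0 called in both. With the tubule mean as a covariate 6 of the 10 endothelial markers were called, and 680 genes over all, against 105 without it. The part of these cell types in the values was not tested. With the tubule mean as a covariate the value for Pdgfra was -0.57 (adjusted p = 0.0557), and with the Y-linked genes it was -0.53 (0.540).

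**Figure D5:**
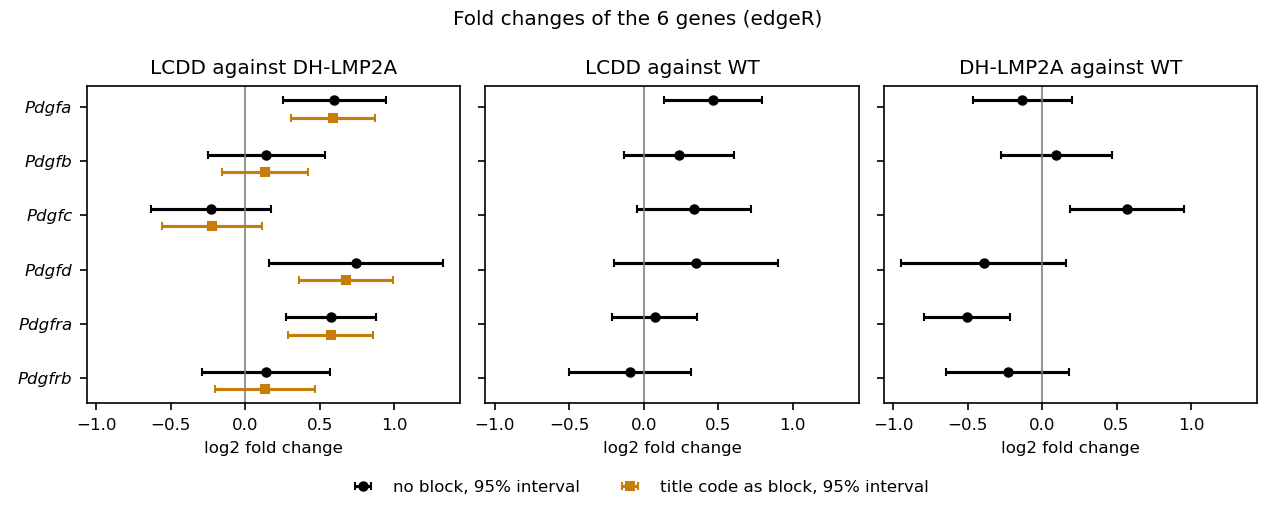
Log2 fold change of the 6 genes in the 3 comparisons, with 95% intervals, from the fit without a block (black circles) and, for LCDD against DH-LMP2A, with the title code as a block (orange squares). The intervals of Pdgfa, Pdgfd and Pdgfra against DH-LMP2A lie above 0 in both fits, and those of Pdgfb, Pdgfc and Pdgfrb include 0.

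The genes most like each member were ranked by Pearson r of log2 CPM over the 13 libraries, among 13011 candidate genes whose mean was 1 CPM or more. These are descriptions, since the libraries share codes and genotypes. Pdgfa was most like Lgals1, Clec11a and Pbk (each r = 0.94). Pdgfb was most like Cacnb3, H2afx and Mfap2 (each 0.94), and Pdgfc like Wee1 (0.89), Lonrf1 (0.89) and Mthfd1l (0.88).

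Pdgfd was most like Cav2 (0.99), Rap1a (0.97) and Rap1b (0.97), and with genotype means removed the value for Cav2 was 0.98. Pdgfra was most like Pcdhgc3 (0.96), Gdf10 (0.92) and RP24-74B24.4 (0.90). Pdgfrb was most like Zfp516 (0.90), Tnfsf12 and Mta3 (each 0.87). No gene appeared in the lists of more than 1 member. Between members, the highest r was 0.65, for Pdgfa with Pdgfd (Spearman rho 0.37), and Pdgfra with Pdgfrb gave 0.47.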

How the data were processed

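Per the file headers, the authors deposited unnormalised counts of reads for each gene from featureCounts. STAR 2.4.0a, Subread 1.5.0-p3 and DESeq2 are named in the submitters' processing notes, with the mm10 (GRCm38) build. The annotation, strand setting and handling of reads that match several places are not given in the sources used here. Per the labels, the kit was a stranded mRNA kit and sequencing was paired-end. Of the symbols, 25 look like dates and 2 were duplicated and made unique. Intervals cover the fit only.

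The 13 libraries entered 1 edgeR 4.0.16 quasi-likelihood fit in R 4.3.3 (TMM factors, filterByExpr with a minimum count of 10, which dropped 30220 genes, 1 coefficient per genotype). P-values were adjusted by Benjamini-Hochberg over 16738 genes and called under 0.05. SE is the log2 fold change over the square root of F, CPM is TMM-scaled, and log2 CPM has a prior count of 2. Steps were tested on simulated data. The members and the 16 gene lists were chosen with earlier results of these data known. Named genes are the 6 members, up to 4 called genes per list and comparison by smallest p (or the 1 with the smallest p), the 3 most alike genes per member, leaving out predicted ones, and called neighbours within 500 kb. Genes called only with the block were named after their values were seen.

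For LCDD and DH-LMP2A, same-code libraries deviated from their genotype means together in all 4 pairs (r from 0.153 to 0.593, mean 0.421), and the block is given beside those results. With WT this did not hold for every pair. Alternatives were DESeq2 1.42.0, RLE factors, no filter or a filter of 5 CPM, 2 genotypes only, the block, tubule and Y-linked covariates, no single-mouse WT libraries, and each replicate left out. Added after seeing the data were the block without each code, with LCDD and DH-LMP2A only, and with the tubule covariate.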

Additional observations from a re-analysis of the deposited data

Results flagged for a closer look

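Of 18 groups (6 genes in 3 genotypes), 2 held a library that stood apart from the others of its genotype by Dixon's criterion, and chance alone flags about 1 group in 20. Pdgfra measured 205.1 CPM in WT replicate 2, against 162 to 174 CPM in the other 4 WT libraries. Pdgfrb measured 528 CPM in LCDD replicate 1, against 710 to 736 CPM in the other 3 LCDD libraries. LCDD replicate 1 also held the highest LCDD values of Pdgfa, Pdgfb and Pdgfd and the lowest summed podocyte markers (8105 CPM). Without it, LCDD and DH-LMP2A had log2 fold changes of 0.42 for Pdgfa (adjusted p = 0.208), 0.43 for Pdgfd (0.624) and 0.61 for Pdgfra (0.0903, edgeR).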

How the results depend on the processing

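Of 444 recomputed fold changes of the 6 genes, 415 kept their direction and their side of the threshold, 16 passed it and 13 turned direction. Of 71 recomputed counts of members called, 63 were unchanged. For LCDD against DH-LMP2A (0 called), DESeq2 called 2 (Pdgfra and Pdgfa), the tubule covariate 3 and the replicate block 3. The block called 3 members without the third code (1057 of all genes), and 0 without the first (670), the second (264) or the fourth (71). It called 2 in the fit of those 8 libraries (779) and 0 with the tubule covariate (609). Leaving out 1 replicate gave 0 to 1 (1 without LCDD replicate 3, Pdgfra with adjusted p = 0.0205). For DH-LMP2A against WT (0 called), DESeq2 called 1 and the replicate block 1, in both Pdgfra (-0.51, adjusted p = 0.0289, and -0.58, 0.0444). Same-code WT pairs correlated between -0.165 and 0.400 with LCDD and between -0.159 and 0.568 with DH-LMP2A. In each, 4 of 5 pairs were over 0.1 and the pair with WT replicate 5 was negative, so the rule that every pair be over 0.1 was not met. With the block, 3 of 10 endothelial markers were called lower in DH-LMP2A than in WT, with 562 genes called over all.

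The values that turned direction follow. LCDD against DH-LMP2A gave -0.0086 to 0.2703 for Pdgfb over the left-out replicates, and -0.0147 for Pdgfrb with the block and without the fourth code. LCDD against WT gave -0.0086 (replicate block), -0.0506 (no single-mouse WT) and -0.0533 to 0.1736 (left-out replicates) for Pdgfra, and 0.0023 (tubule covariate) and -0.2043 to 0.0051 (left-out replicates) for Pdgfrb. DH-LMP2A against WT gave, for Pdgfb, -0.0287 (replicate block), -0.1229 (tubule), -0.1212 (Y-linked), -0.0033 (no single-mouse WT) and -0.0318 to 0.1909 (left-out replicates), and 0.1675 for Pdgfd (Y-linked), which was -0.39 without the covariate. The cause was not tested.

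Counts over all genes moved by more than 1.5 times. For LCDD against DH-LMP2A (334) they were 823 with DESeq2, 153 at 5 CPM, 213 with 2 genotypes, 1021 with the block, 1042 with the tubule covariate and 113 to 484 over left-out replicates. For LCDD against WT (308) they were 742, 116, 185 and 536 in the first 4 of these settings, 23 with the Y-linked covariate, 54 without single-mouse WT and 159 to 441. For DH-LMP2A against WT (105) they were 474 with DESeq2, 54 at 5 CPM, 562 with the block, 680 with the tubule covariate, 36 with the Y-linked covariate, 69 without single-mouse WT and 29 to 407. At unadjusted p under 0.05 the 3 comparisons had 2193, 2002 and 2085 genes.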

Other observations

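Genes within 500 kb of a member were also tested. These were 18 near Pdgfa, 23 near Pdgfb, 5 near Pdgfra and 17 near Pdgfrb, with 0 called in any comparison without the block. With the block, Arsi, an arylsulfatase gene near Pdgfrb, was called between LCDD and DH-LMP2A (adjusted p = 0.0336). Without it the log2 fold change was 1.44 (adjusted p = 0.106). Arsi was also lower in DH-LMP2A than in WT by a log2 fold change of -1.97 (adjusted p = 0.0504, and 0.00926 with the block), and LCDD against WT gave -0.53 (0.697). Smooth muscle and renin markers were lower in LCDD than in DH-LMP2A for 5 of 5 genes (median -1.07, summed 169 to 437 against 539 to 881 CPM), with 0 called without the block and 2 with it. Endothelial markers were higher for 10 of 10 (median 0.49) and podocyte markers lower for 8 of 9 (median -0.42), with 0 called in either list without the block, and 0 endothelial and 2 podocyte markers with it.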
